A study of Mus musculus with 9 samples.

Results

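A list of 50 genes of mitosis was followed in resting CD8 T cells of 3 clones, named Rop7-I, Rop7-II and Rop7-III. The members were the rows of the expression table that carry the listed symbols, 50 of the 24060 genes in the table, and they cover entry into mitosis, the spindle checkpoint, the kinetochore, the spindle with its motors, and cytokinesis. Of these, 49 reached more than 0.5 TPM (transcripts of the gene among 1000000 transcripts of the sample, per length) in at least 1 sample and were tested among 13049 genes. Psrc1, a spindle protein, was the exception, with at most 0.16 TPM in any sample.

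The 3 groups were 3 lines of transnuclear mice, each made from the nucleus of a single T cell, so that a line inherits 1 rearranged T-cell receptor and stands for 1 clone. Captions of the paper call the sequenced cells of all 3 lines homozygous, its term for mice with both rearranged receptor chains on both alleles. Some CD8 T cells of these mice carry another receptor after further rearrangement, and the samples were enriched for the clonal receptor by a sort for binding to Rop7-loaded H-2Ld. All 3 receptors recognise Rop7, a Toxoplasma peptide, on the class I molecule H-2Ld, and the mice had been crossed back onto the BALB/c strain. Each of the clones had 3 biological replicates, which makes 9 samples, and the labels do not say whether replicates came from separate mice, so that p values measure the spread between these samples. The age of the mice is not given in the sources used here. Spleen cells of every group were held overnight with IL-2 (10 ng per ml) but no antigen, and CD3+ CD8+ H-2Ld-Rop7+ cells were then sorted to a stated purity of 90 to 95%. Each value given in TPM is already divided by gene length, and the number of reads behind it is unknown. The comparison asks how the resting transcriptomes of clones that differ in self-reactivity compare.

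Mitosis is set in motion by Cdk1 bound to cyclins A and B, helped by the Aurora and Polo kinases. Kinetochores, built on centromeres that contain the histone Cenpa, attach chromosomes to spindle microtubules, and checkpoint proteins hold back the anaphase-promoting complex (APC/C) until attachment is complete. Kinesins and microtubule-binding proteins shape the spindle, and anillin, Ect2 and Prc1 help to divide the cell. Many of these genes are known to be transcribed mainly in G2 and mitosis, through the MuvB complex with B-Myb and FoxM1 and through NF-Y, and to be silent in resting naive T cells.

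The letters that MuvB and NF-Y are known to read can be seen in the promoters. RefSeq promoter sequence (GRCm38.p6) was matched for 42 of the 50 members. For every gene, members and others, only the first listed promoter was used. The promoters of 4 of them are shown, each over the 250 bases upstream of the start and written 5′ to 3′ on the strand of the gene, because Top2a, Mki67 and Kif11 were among the genes called higher in Rop7-III and Cdc20 was not. Capitals mark the CHR element (TTTGAA, or TTCAAA on the other strand) and the CCAAT box (CCAAT, or ATTGG on the other strand). The windows are chr11:99024190-99024439 on the minus strand for Top2a, chr7:135716380-135716629 on the minus strand for Mki67, chr19:37376132-37376381 on the plus strand for Kif11 and chr4:118437344-118437593 on the minus strand for Cdc20.
Top2a: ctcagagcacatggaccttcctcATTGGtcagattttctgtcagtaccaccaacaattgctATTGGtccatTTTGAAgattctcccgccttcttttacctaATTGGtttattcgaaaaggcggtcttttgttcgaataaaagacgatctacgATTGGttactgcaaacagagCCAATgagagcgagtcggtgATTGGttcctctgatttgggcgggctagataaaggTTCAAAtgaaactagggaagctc
Mki67: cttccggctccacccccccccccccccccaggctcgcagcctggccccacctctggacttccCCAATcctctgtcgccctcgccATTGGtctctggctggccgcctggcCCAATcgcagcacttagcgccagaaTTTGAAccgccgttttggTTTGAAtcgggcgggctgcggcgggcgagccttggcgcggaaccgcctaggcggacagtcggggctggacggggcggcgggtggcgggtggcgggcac
Kif11: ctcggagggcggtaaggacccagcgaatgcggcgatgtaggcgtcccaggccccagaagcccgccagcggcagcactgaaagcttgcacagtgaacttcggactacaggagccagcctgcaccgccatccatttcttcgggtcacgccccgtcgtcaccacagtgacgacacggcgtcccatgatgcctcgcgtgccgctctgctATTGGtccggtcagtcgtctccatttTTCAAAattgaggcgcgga
Cdc20: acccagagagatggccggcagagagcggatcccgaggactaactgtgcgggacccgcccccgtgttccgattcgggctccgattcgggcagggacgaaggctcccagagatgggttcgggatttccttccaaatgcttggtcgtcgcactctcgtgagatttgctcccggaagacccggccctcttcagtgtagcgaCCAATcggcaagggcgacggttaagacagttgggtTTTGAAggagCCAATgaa
Top2a held 2 CHR and 6 CCAAT matches in this window, Mki67 2 and 3, Kif11 1 and 1, and Cdc20 1 and 2, and no match overlapped another. Over 300 bases that also include the 50 bases after the upstream window, the CHR letters stood in 31 of 42 members (73.8%), against 12.2% of 9704 promoters of tested genes and 18.1% of all 27025 promoters. The CCAAT letters stood in 33 of 42 members (78.6%), against 39.0% of promoters of tested genes and 37.9% of all promoters. Within the list, the CHR letters were about as frequent in members called higher in Rop7-III than the mean of the other clones (12 of 16, 75.0%) as in the other tested members (19 of 25, 76.0%). For CCAAT the shares were 87.5% (14 of 16) and 72.0% (18 of 25). In the 250 bases upstream alone, the CHR letters stood in 7 of 16 called members (43.8%) and 6 of 25 others (24.0%). In this window they stood in 10.8% of promoters of tested genes and 16.3% of all promoters. The called members include Bub1, Bub1b, Ttk, Cenpf, Aspm and Kif4. These exceeded 0.5 TPM in Rop7-III alone and so had to be higher there. A match is a description of the letters and not evidence of a bound site.

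Most of these genes had their highest level in Rop7-III. In 34 of the 49 tested members, the 3 Rop7-III samples were above all 6 samples of the other clones, an arrangement found in 9.37% of the tested genes. The 34 include 8 members that passed the filter of 0.5 TPM through Rop7-III alone and so had to be higher there. Without them it was 26 of 41 (63.4%). The means and sums given next include these 8. The reverse arrangement, with all Rop7-III samples below, was found in 1 member, Gsg2, and in 8.45% of the tested genes. The mean of log2(TPM + 1) over the 49 members was 1.83 ± 0.08 (SD, n = 3) in Rop7-I, 1.81 ± 0.03 in Rop7-II and 2.44 ± 0.14 in Rop7-III. The summed level of the tested members was 274 to 300 TPM in Rop7-I, 294 to 308 TPM in Rop7-II and 329 to 383 TPM in Rop7-III, so that the clones did not overlap in either measure when Rop7-III was set against the others. In sorted bulk samples, a change in the number of cells that express a gene cannot be told apart from a change in the RNA per cell.

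**Figure D1:**
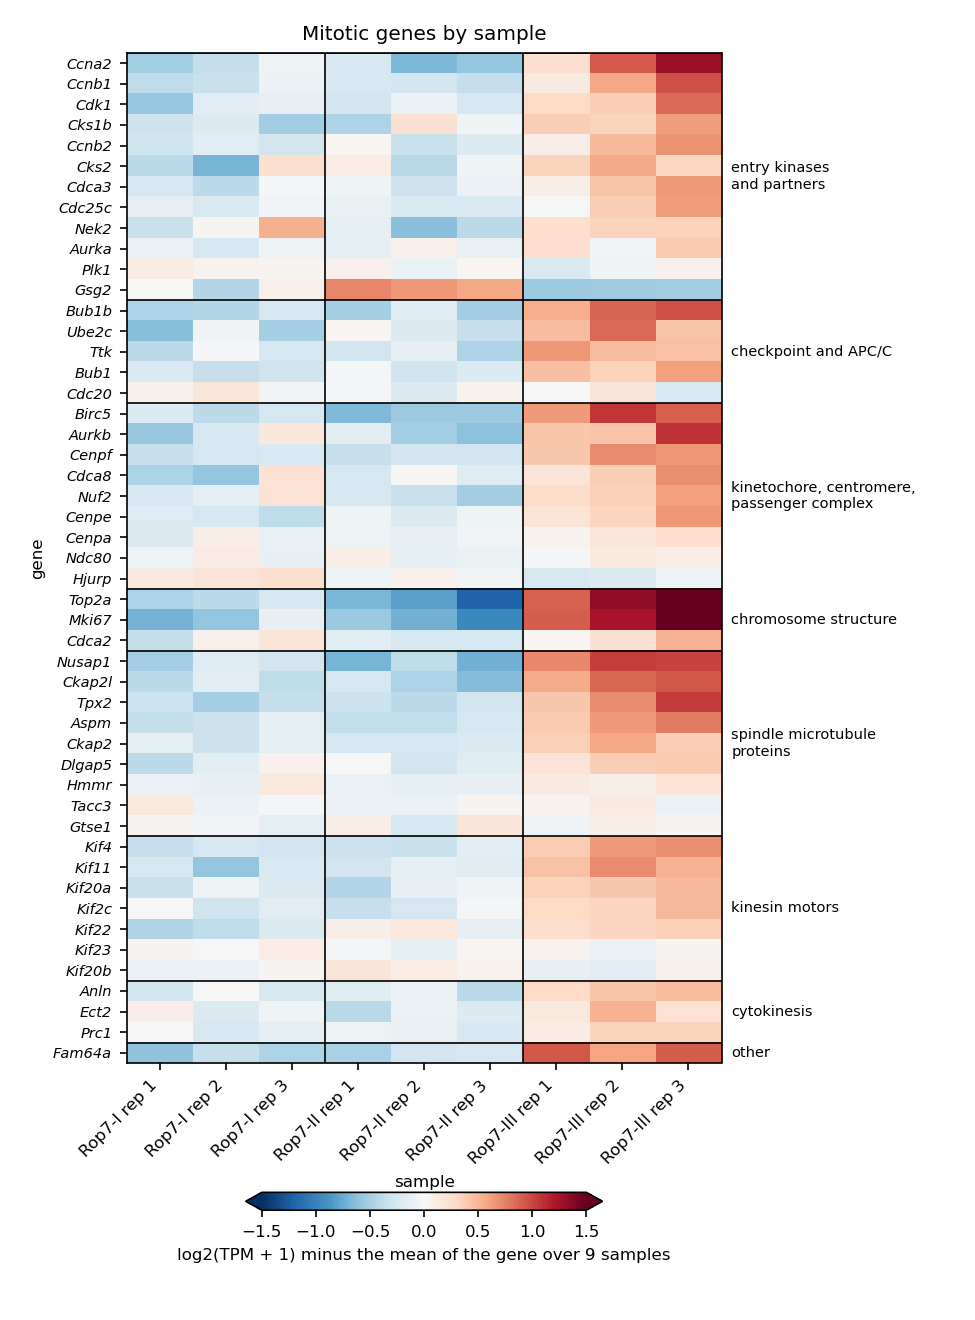
Each row is 1 of the 49 tested members and each column 1 sample, and the colour gives log2(TPM + 1) minus the mean of the gene over the 9 samples, with rows grouped by step of mitosis. The 3 Rop7-III columns are above the gene's mean in most rows, Gsg2 is below it in all 3, and rows such as Plk1, Cdc20 and Kif23 are close to white throughout.

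Each pair of clones was compared with limma on log2(TPM + 1), with p values adjusted over the 13049 tested genes, and a gene was called at an adjusted p under 0.01 with no fold minimum. Against Rop7-II, 19 members were called, Rop7-III being higher in 18 and lower in 1, where 11.5% of all tested genes were called (6.02% higher and 5.51% lower). Against Rop7-I, 16 members were called, 15 higher and 1 lower, where the background was 4.51% (2.43% higher and 2.08% lower). Between Rop7-I and Rop7-II, 1 member was called, Gsg2, which was lower in Rop7-I, against a background of 6.77% (3.31% higher and 3.46% lower). Against the mean of the other clones, 21 members were called, 20 higher and 1 lower, with a background of 8.41% (4.71% higher and 3.71% lower). The comparisons with Rop7-III use the same Rop7-III samples and are not independent of each other.

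The median difference over the 49 members was 0.59 against Rop7-II and 0.66 against Rop7-I on the log2(TPM + 1) scale, beside medians of -0.02 and -0.00 over all tested genes. It was 0.02 between Rop7-I and Rop7-II, where the Rop7-I mean was the higher in 29 members (47.3% of all genes). The mean of Rop7-III exceeded that of Rop7-II in 45 members (45.6% of all genes) and that of Rop7-I in 43 (48.8%), and it exceeded the mean of the other clones in 43 (46.4%). Of the members, 8 passed the level filter through Rop7-III alone and so had to be higher there, namely Cdc25c, Bub1, Bub1b, Ttk, Cenpf, Aspm, Kif4 and Anln. Among the other 41 tested members, 12 were called higher against Rop7-II and 10 against Rop7-I, with median differences of 0.54 and 0.62. The number of calls depended on single samples. Against Rop7-II it was 10 or 11 when Rop7-III replicate 2 or replicate 3 was left out and 12 when Rop7-II replicate 3 was. Against Rop7-I it was 5 when Rop7-I replicate 1 or Rop7-III replicate 2 was left out, 6 when Rop7-III replicate 3 was, and 8 when Rop7-I replicate 2 or replicate 3 was. Against the mean of the other clones it was 11 without Rop7-III replicate 2.

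**Figure D2:**
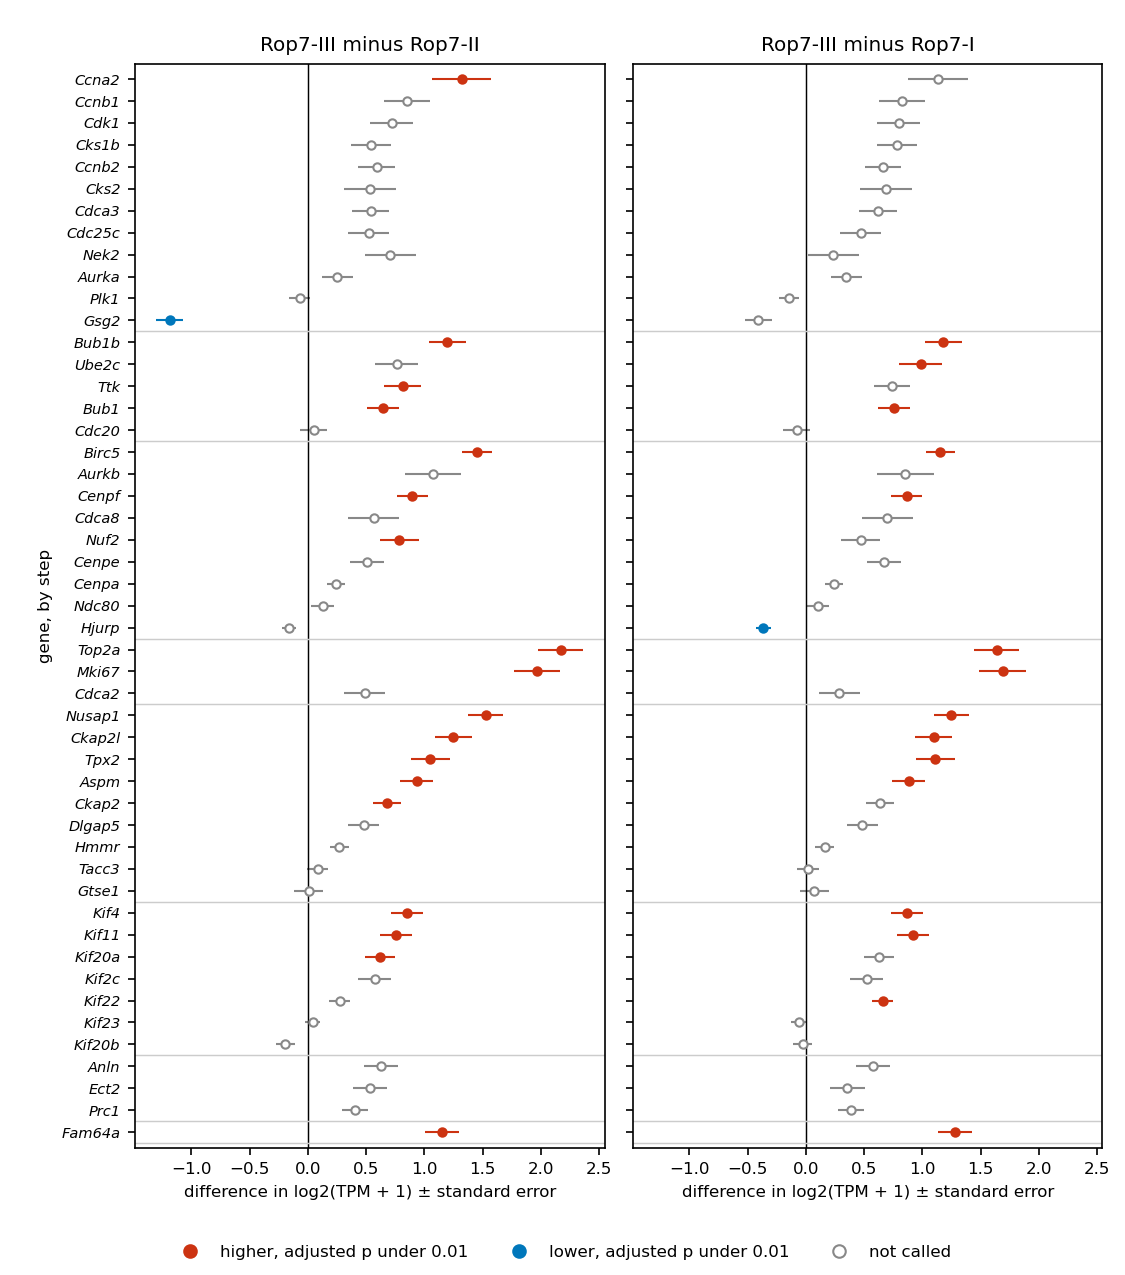
Each point is the difference in log2(TPM + 1) of a tested member with its standard error from limma, for Rop7-III minus Rop7-II on the left and Rop7-III minus Rop7-I on the right, with genes grouped by step. Filled red points are the 18 and 15 members called higher, filled blue points are Gsg2 on the left and Hjurp on the right, and open points were not called.

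Among the 12 entry kinases and their partners, most levels were higher in Rop7-III but few passed the test. Ccna2, which encodes cyclin A2, was at 0.69, 0.89 and 1.28 TPM in Rop7-I, at 1.04, 0.51 and 0.61 TPM in Rop7-II and at 1.85, 3.55 and 4.93 TPM in Rop7-III. All 3 Rop7-III samples exceeded the other 6, with a wide spread among themselves. The difference was 1.32 ± 0.26 (standard error) against Rop7-II (limma, adjusted p = 0.00616) and 1.13 ± 0.26 against Rop7-I (adjusted p = 0.0219), the first of which was called. Ccnb1, cyclin B1, was at 0.85 to 1.27 TPM in Rop7-I, 0.88 to 1.05 TPM in Rop7-II and 1.65, 2.60 and 3.73 TPM in Rop7-III. Rop7-III did not overlap with the others, and Ccnb1 was called only against the mean of the other clones (difference 0.84 ± 0.17, adjusted p = 0.00967), not in either pair. Cdk1, the kinase itself, was at 0.17 to 0.59 TPM in Rop7-I, 0.42 to 0.62 TPM in Rop7-II and 1.14, 1.25 and 2.12 TPM in Rop7-III. Its 3 Rop7-III samples also lay above the rest, but with adjusted p values of 0.022 and 0.025 it was not called.

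The Cdk-binding proteins Cks1b and Cks2, cyclin B2 (Ccnb2), the phosphatase Cdc25c, which activates Cdk1, and Cdca3 likewise had all 3 Rop7-III samples above the other 6 without being called in any comparison. Of these, Cdc25c entered the test through Rop7-III alone and so had to be higher there. Aurka, the spindle pole kinase, and the centrosomal kinase Nek2 overlapped between clones. Plk1, the Polo kinase, was at 11.24, 10.66 and 10.59 TPM in Rop7-I, at 10.75, 9.50 and 10.50 TPM in Rop7-II and at 8.58, 9.85 and 10.78 TPM in Rop7-III. The samples of the 3 clones overlapped, and the differences were -0.07 ± 0.09 against Rop7-II and -0.14 ± 0.09 against Rop7-I. In this step, 1 gene was called higher (Ccna2) and 1 lower (Gsg2) against Rop7-II, and the median difference of the step was 0.54 against Rop7-II and 0.64 against Rop7-I. The call of Ccna2 against Rop7-II ended without any 1 of 7 samples, all but Rop7-II replicate 1 and Rop7-III replicate 1 (adjusted p up to 0.027, without Rop7-III replicate 2). That of Ccnb1 against the mean ended without any sample but Rop7-III replicate 1 (adjusted p up to 0.0427, without Rop7-III replicate 2).

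Gsg2, which encodes haspin, a kinase of histone H3, went the other way. It was at 30.71, 22.44 and 32.58 TPM in Rop7-I, at 51.94, 48.75 and 46.62 TPM in Rop7-II and at 20.89, 20.94 and 21.20 TPM in Rop7-III. The 3 clones did not overlap, with Rop7-II highest and Rop7-III lowest. Rop7-III was below Rop7-II by a difference of -1.19 ± 0.12 (limma, adjusted p = 0.000153), Rop7-I was below Rop7-II by -0.78 (adjusted p = 0.0025), and Rop7-III against Rop7-I was -0.41 ± 0.12 (adjusted p = 0.0503), which was not called. On the GENCODE annotation of GRCm38 it lies at positions 73135485 to 73138294 of chromosome 11, minus strand, inside Itgae (73090583 to 73147446, plus strand), and the libraries do not keep strand. Itgae, which encodes the integrin chain CD103, was at 145, 114 and 164 TPM in Rop7-I, at 244, 254 and 235 TPM in Rop7-II and at 104, 98.1 and 94.6 TPM in Rop7-III. The order of the clones was the same as for Gsg2, with a difference of -1.30 against Rop7-II. No annotated exon of either gene overlaps the other, but reads from unspliced Itgae RNA at this place cannot be told apart from reads of Gsg2.

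Of the 5 checkpoint and APC/C genes, 4 were called in at least 1 comparison and Cdc20 in none. Bub1b, which encodes the checkpoint kinase BubR1, was at 0.17, 0.19 and 0.34 TPM in Rop7-I, at 0.14, 0.41 and 0.12 TPM in Rop7-II and at 1.34, 1.95 and 2.14 TPM in Rop7-III. Rop7-III stood apart, with the lowest Rop7-III sample above the highest of the others. The difference was 1.2 ± 0.16 against Rop7-II (limma, adjusted p = 0.000923) and 1.18 ± 0.16 against Rop7-I (adjusted p = 0.00199). Bub1, the partner kinase at kinetochores, was at 0.11, 0.03 and 0.06 TPM in Rop7-I, at 0.28, 0.06 and 0.13 TPM in Rop7-II and at 0.78, 0.66 and 0.99 TPM in Rop7-III, and was called against each clone. Ttk, the checkpoint kinase Mps1, was at 0.05, 0.36 and 0.15 TPM in Rop7-I, at 0.13, 0.25 and 0 TPM in Rop7-II and at 1.16, 0.89 and 0.87 TPM in Rop7-III, and of the pairs was called against Rop7-II only. All 3 kinases were over 0.5 TPM in Rop7-III alone and entered the test through it, so that they had to be higher there, and 3 of the 4 called genes of this step are these.

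Ube2c, the ubiquitin-conjugating enzyme of the APC/C, was at 1.40, 2.61 and 1.63 TPM in Rop7-I, at 2.81, 2.22 and 1.95 TPM in Rop7-II and at 4.17, 5.76 and 4.06 TPM in Rop7-III. All Rop7-III samples were above the rest, and the gene was called against Rop7-I (difference 0.99, limma adjusted p = 0.00987) but not against Rop7-II (0.76, adjusted p = 0.0173). Cdc20, which activates the APC/C once the checkpoint is satisfied, was at 13.36, 14.47 and 12.32 TPM in Rop7-I, at 12.43, 10.84 and 13.24 TPM in Rop7-II and at 12.76, 14.61 and 10.69 TPM in Rop7-III. Rop7-III held both the highest and the lowest of the 9 samples, and the differences were 0.05 ± 0.12 and -0.08 ± 0.12. Against Rop7-II the calls ended for Bub1 without any sample but Rop7-II replicate 1 (adjusted p up to 0.0327, without Rop7-III replicate 3) and for Ttk without Rop7-I replicate 3, Rop7-II replicate 3 or any Rop7-III replicate (up to 0.026, without Rop7-III replicate 1). Against Rop7-I they ended for Bub1 without any sample but Rop7-II replicates 1 and 2 (up to 0.0343, without Rop7-I replicate 2), for Ube2c without any but Rop7-I replicate 2 and Rop7-II replicate 1 (up to 0.0462, without Rop7-I replicate 1) and for Bub1b without Rop7-I replicate 1 or 2 or Rop7-III replicate 2 or 3 (up to 0.0134, without Rop7-III replicate 2).

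The 9 genes of the kinetochore, centromere and chromosomal passenger complex included genes that were higher in Rop7-III, genes at about the same level in all clones and Hjurp, which was lower in Rop7-III than in Rop7-I. Birc5, which encodes survivin, a subunit of the passenger complex, was at 2.80, 2.34 and 2.64 TPM in Rop7-I, at 1.77, 2.00 and 2.00 TPM in Rop7-II and at 5.81, 8.19 and 7.13 TPM in Rop7-III. The lowest Rop7-III sample was well above the highest of the others, and the ratio of mean TPM was 3.66 against Rop7-II and 2.72 against Rop7-I. Birc5 was called against both, with differences of 1.45 ± 0.13 (limma, adjusted p = 7.8e-05) and 1.15 ± 0.13 (adjusted p = 0.000646). The other subunits in the list, Aurkb, which is the kinase of the complex, and Cdca8, which encodes borealin, were at 1.95 to 3.71 and 3.71 to 5.69 TPM in Rop7-III. Aurkb did not overlap with the other clones (0.45 to 1.50 TPM), whereas Cdca8 did (1.75 to 3.79 TPM), and neither was called.

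Cenpf, a large kinetochore protein, was at 0.10, 0.17 and 0.20 TPM in Rop7-I, at 0.10, 0.15 and 0.15 TPM in Rop7-II and at 0.86, 1.29 and 1.2 TPM in Rop7-III. The ratio of mean TPM was 8.38 against Rop7-II and 7.13 against Rop7-I, and Cenpf was called against both (limma, adjusted p = 0.0015 and 0.00352). Cenpf entered the test through Rop7-III alone and so had to be higher there. Nuf2, a subunit of the Ndc80 complex that holds microtubules, was at 0.36, 0.47 and 0.87 TPM in Rop7-I, at 0.36, 0.28 and 0.12 TPM in Rop7-II and at 0.95, 1.07 and 1.47 TPM in Rop7-III. Its Rop7-III samples were all higher, narrowly so beside Rop7-I replicate 3, and it was called against Rop7-II (0.78 ± 0.17, adjusted p = 0.0094) but not against Rop7-I (0.47 ± 0.17, adjusted p = 0.104). Its partner Ndc80 did not show this, at 10.74 to 13.37 TPM in all 9 samples, with differences of 0.13 ± 0.10 and 0.10 ± 0.10. Cenpa, the centromeric histone, had the highest level of the list at 46.3 to 64.5 TPM and differences of 0.24 ± 0.08 against each clone, which were not called.

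Hjurp, the chaperone that deposits Cenpa, was at 29.25, 30.65 and 31.62 TPM in Rop7-I, at 25.39, 27.98 and 25.82 TPM in Rop7-II and at 22.30, 22.72 and 25.45 TPM in Rop7-III. All Rop7-III samples were below those of Rop7-I but Rop7-III replicate 3 overlapped with Rop7-II. Hjurp was called lower against Rop7-I (-0.37 ± 0.06, limma adjusted p = 0.00722) and not against Rop7-II (-0.16 ± 0.06, adjusted p = 0.0987). In this step 3 genes were called higher against Rop7-II (Birc5, Cenpf and Nuf2) and 2 against Rop7-I (Birc5 and Cenpf), with median differences of 0.56 and 0.67. The call of Nuf2 against Rop7-II ended without any sample but Rop7-I replicate 3 (adjusted p up to 0.0354, without Rop7-III replicate 3). Against Rop7-I, that of Cenpf ended without any Rop7-I replicate or Rop7-III replicate 2 or 3 (up to 0.0195) and that of Hjurp without any Rop7-I replicate, Rop7-II replicate 3 or Rop7-III replicate 1 or 2 (up to 0.0341), both highest without Rop7-III replicate 2.

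Top2a and Mki67 had the largest differences of the list on the log2 scale. Top2a, the topoisomerase that untangles sister chromatids, was at 1.67, 1.84 and 2.16 TPM in Rop7-I, at 1.32, 1.12 and 0.62 TPM in Rop7-II and at 5.89, 8.38 and 10.17 TPM in Rop7-III. All 3 clones were separate, Rop7-II lowest and Rop7-III highest, and the difference was 2.17 ± 0.20 against Rop7-II (limma, adjusted p = 9.61e-05) and 1.64 ± 0.20 against Rop7-I (adjusted p = 0.00107). Mki67, which encodes Ki-67, the protein that coats mitotic chromosomes, was at 1.48, 1.68 and 2.72 TPM in Rop7-I, at 1.75, 1.45 and 1.07 TPM in Rop7-II and at 6.60, 8.51 and 10.46 TPM in Rop7-III. The differences were 1.96 ± 0.20 (adjusted p = 0.000196) and 1.69 ± 0.20 (adjusted p = 0.00103). Rop7-I and Rop7-II overlapped for Mki67, and Rop7-III stood above both. Cdca2, which brings a phosphatase to chromosomes at anaphase, was at 1.26, 1.58 and 2.16 TPM in Rop7-III and overlapped with Rop7-I (0.73, 1.32 and 1.53 TPM), so that the third gene of this step was not called.

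**Figure D3:**
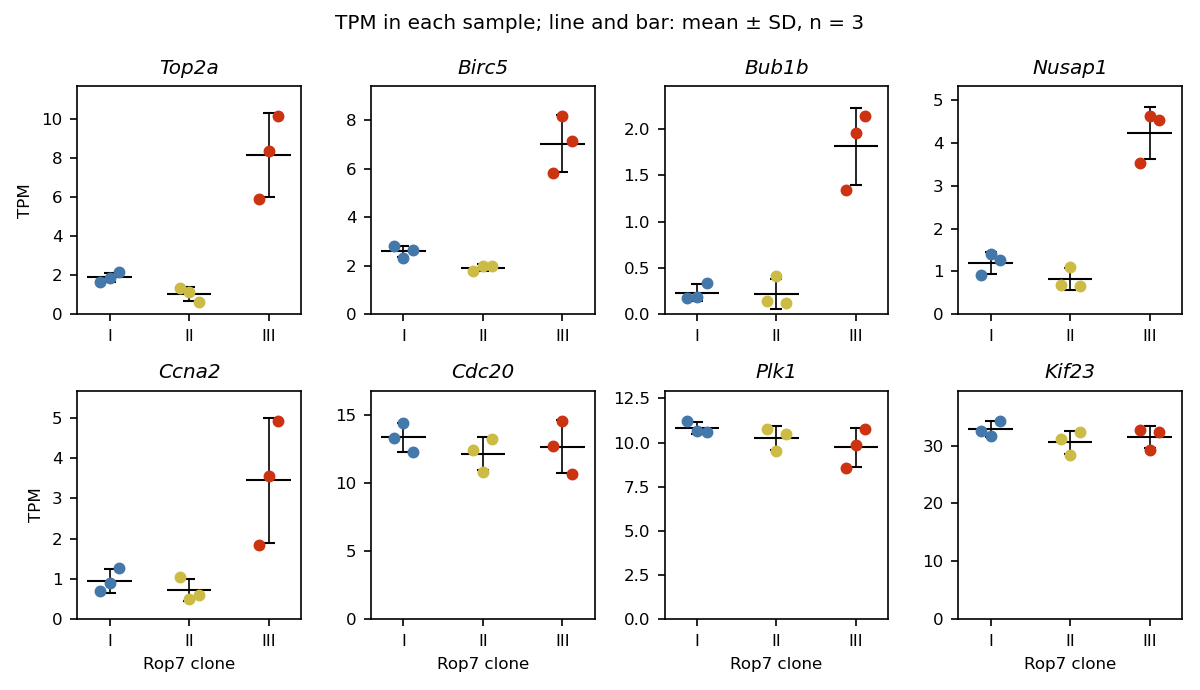
Each panel gives the TPM of 1 gene in the 9 samples, by clone, with a line and bar for mean ± SD (n = 3) and an axis that starts at 0. Top2a, Birc5, Bub1b, Nusap1 and Ccna2 have every Rop7-III point above every other point, whereas the clones overlap for Cdc20, Plk1 and Kif23.

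Of the 9 tested spindle microtubule proteins, 5 were called higher against Rop7-II and 4 against Rop7-I. Nusap1, which bundles spindle microtubules near chromosomes, was at 0.92, 1.41 and 1.26 TPM in Rop7-I, at 0.69, 1.11 and 0.66 TPM in Rop7-II and at 3.53, 4.63 and 4.52 TPM in Rop7-III. Rop7-III was well apart, with differences of 1.52 ± 0.15 (limma, adjusted p = 0.000171) and 1.25 ± 0.15 (adjusted p = 0.00116). Ckap2l, a spindle protein, was at 0.47, 0.72 and 0.49 TPM in Rop7-I, at 0.61, 0.39 and 0.23 TPM in Rop7-II and at 1.84, 2.52 and 2.69 TPM in Rop7-III. It was called against both clones, with differences of 1.25 and 1.10. Tpx2, which activates Aurora A on the spindle, was at 0.65, 0.44 and 0.60 TPM in Rop7-I, at 0.63, 0.56 and 0.69 TPM in Rop7-II and at 1.70, 2.34 and 3.24 TPM in Rop7-III. The other clones were close to each other, and Tpx2 was called against each of them (1.05 and 1.11).

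Aspm, a spindle pole protein, was at 0.27, 0.30 and 0.47 TPM in Rop7-I, at 0.26, 0.26 and 0.38 TPM in Rop7-II and at 1.14, 1.54 and 1.80 TPM in Rop7-III. It was also called against both, with differences of 0.93 and 0.88, but it entered the test through Rop7-III alone and so had to be higher there. Ckap2 was at 0.81, 0.60 and 0.81 TPM in Rop7-I, at 0.66, 0.68 and 0.73 TPM in Rop7-II and at 1.55, 1.99 and 1.58 TPM in Rop7-III, called against Rop7-II (0.68, limma adjusted p = 0.00427) and not against Rop7-I (0.64, adjusted p = 0.0108). Every Rop7-III sample was above the rest for both genes. Dlgap5, a kinetochore fibre protein, also separated (5.62 to 6.57 TPM against 3.39 to 5.04 TPM) without a call. Hmmr, Tacc3 and Gtse1 had differences between 0.01 and 0.27 against Rop7-II and between 0.02 and 0.16 against Rop7-I, and their samples overlapped.

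Nusap1 was called against each clone whichever sample was left out. Against Rop7-II the calls ended for Tpx2 without Rop7-III replicate 2 (adjusted p = 0.0109) and for Ckap2 without Rop7-II replicate 2 or 3 or any Rop7-III replicate (up to 0.0195, without Rop7-III replicate 2). Against Rop7-I they ended for Aspm and Tpx2 without any Rop7-I replicate or Rop7-III replicate 2 or 3 (up to 0.0251 for Aspm, without Rop7-III replicate 2, and 0.0186 for Tpx2, without Rop7-I replicate 2) and for Ckap2l without Rop7-I replicate 1 or 3 or Rop7-III replicate 2 or 3 (up to 0.0166, without Rop7-III replicate 2).

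The 7 kinesin motors were mixed. Kif4, a motor on chromosome arms, was at 0.13, 0.21 and 0.18 TPM in Rop7-I, at 0.15, 0.14 and 0.28 TPM in Rop7-II and at 0.88, 1.25 and 1.33 TPM in Rop7-III. Its ratio of mean TPM was 6.07 against Rop7-II and 6.65 against Rop7-I, and it was called against both (limma, adjusted p = 0.00226 and 0.00408). Kif4 entered the test through Rop7-III alone and so had to be higher there. Kif11, the motor that pushes spindle poles apart, was at 1.04, 0.62 and 1.08 TPM in Rop7-I, at 1.02, 1.21 and 1.15 TPM in Rop7-II and at 2.31, 2.99 and 2.51 TPM in Rop7-III, and was called against both, with differences of 0.76 and 0.92. For both motors Rop7-III did not overlap with the others, and Rop7-I and Rop7-II did overlap. Kif20a, a motor of the central spindle, was at 2.21, 2.85 and 2.50 TPM in Rop7-I, at 1.99, 2.72 and 2.91 TPM in Rop7-II and at 4.17, 4.38 and 4.70 TPM in Rop7-III, and was called against Rop7-II (0.62, adjusted p = 0.00831) and not against Rop7-I (0.62, adjusted p = 0.0149).

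Kif22, a motor that binds DNA, was at 11.71, 12.35 and 13.95 TPM in Rop7-I, at 17.52, 18.38 and 14.90 TPM in Rop7-II and at 19.75, 20.75 and 21.20 TPM in Rop7-III. The 3 clones were separate with Rop7-II in between, and the call was against Rop7-I (0.66 ± 0.09, limma adjusted p = 0.00191) and not against Rop7-II (0.27 ± 0.09, adjusted p = 0.0558). Kif2c, which shortens microtubules, separated from the other clones without a call. Kif23, the motor of centralspindlin, was at 32.56, 31.65 and 34.34 TPM in Rop7-I, at 31.11, 28.38 and 32.31 TPM in Rop7-II and at 32.80, 29.32 and 32.43 TPM in Rop7-III. It overlapped across the clones, with differences of 0.04 ± 0.06 and -0.06 ± 0.06, and Kif20b (9.51 to 12.41 TPM) was likewise not called in either comparison. Against Rop7-II the calls ended for Kif4 without Rop7-III replicate 2 or 3 (adjusted p up to 0.0121, without Rop7-III replicate 2), for Kif11 without any Rop7-II or Rop7-III replicate (up to 0.021, without Rop7-III replicate 2) and for Kif20a without any 1 of the 9 samples (up to 0.0332, without Rop7-III replicate 3). Against Rop7-I they ended for Kif4 without any Rop7-I replicate or Rop7-III replicate 2 or 3 (up to 0.022, without Rop7-III replicate 2), for Kif11 without Rop7-I replicate 1 or 2 or any Rop7-III replicate (up to 0.0184, without Rop7-III replicate 2) and for Kif22 without Rop7-I replicate 1 or 2 or Rop7-III replicate 2 or 3 (up to 0.0127, without Rop7-III replicate 3).

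The 3 cytokinesis genes had smaller differences that did not pass the limit in any comparison. Anln, which encodes anillin of the contractile ring, was at 0.23, 0.49 and 0.26 TPM in Rop7-I, at 0.32, 0.40 and 0.13 TPM in Rop7-II and at 0.84, 1.00 and 1.08 TPM in Rop7-III. Anln entered the test through Rop7-III alone and so had to be higher there. Ect2, the exchange factor that switches on RhoA, was at 1.69 to 2.36 TPM in Rop7-I, 1.34 to 1.92 TPM in Rop7-II and 2.48, 3.48 and 2.63 TPM in Rop7-III. Prc1, which bundles the central spindle, was at 2.51 to 3.14 TPM, 2.50 to 2.93 TPM and 3.51, 4.22 and 4.23 TPM in the same order. In each, every Rop7-III sample exceeded the other 6, and the differences against Rop7-II were 0.62, 0.54 and 0.41, with adjusted p values of 0.014, 0.029 and 0.029 from limma. Against Rop7-I they were 0.58, 0.36 and 0.39 (adjusted p of 0.033, 0.16 and 0.052).

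Fam64a, which stood outside the steps, was at 0.25, 0.49 and 0.38 TPM in Rop7-I, at 0.36, 0.56 and 0.60 TPM in Rop7-II and at 2.62, 1.87 and 2.56 TPM in Rop7-III. Rop7-III was far above both, with differences of 1.15 ± 0.14 (limma, adjusted p = 0.00064) and 1.28 ± 0.14 (adjusted p = 0.000767). Fam64a, Birc5, Top2a, Mki67 and Nusap1 were the 5 members that were called against Rop7-I whichever sample was left out. Against Rop7-II the same held for 10 members, these 5 with Gsg2, Bub1b, Cenpf, Aspm and Ckap2l. Of the 10, Bub1b, Cenpf and Aspm entered the test through Rop7-III alone and so had to be higher there.

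By step, the mean of log2(TPM + 1) over the genes was 1.93, 1.99 and 2.44 in Rop7-I, Rop7-II and Rop7-III for the entry kinases, 1.2, 1.22 and 1.91 for the checkpoint and APC/C, and 2.27, 2.18 and 2.79 for the kinetochore group. For the chromosome structure genes it was 1.39, 1.06 and 2.60, for the spindle proteins 1.72, 1.66 and 2.36, for the kinesins 2.27, 2.35 and 2.77, and for cytokinesis 1.30, 1.22 and 1.74. In every step the lowest Rop7-III sample lay above the highest sample of the other clones. These means include members that passed the level filter through Rop7-III alone and so had to be higher there. They were 3 of the 5 checkpoint and APC/C genes and 1 gene each of the entry, kinetochore, spindle, kinesin and cytokinesis steps. Step means without them were not computed. The summed TPM of a step did not always separate Rop7-III, because it is carried by the most abundant genes of the step. For the entry kinases it was 54.7 to 72.1 TPM in Rop7-I, 82.9 to 90.0 TPM in Rop7-II and 66.9 to 83.3 TPM in Rop7-III, where Gsg2 alone made up 46.6 to 51.9 TPM of Rop7-II.

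**Figure D4:**
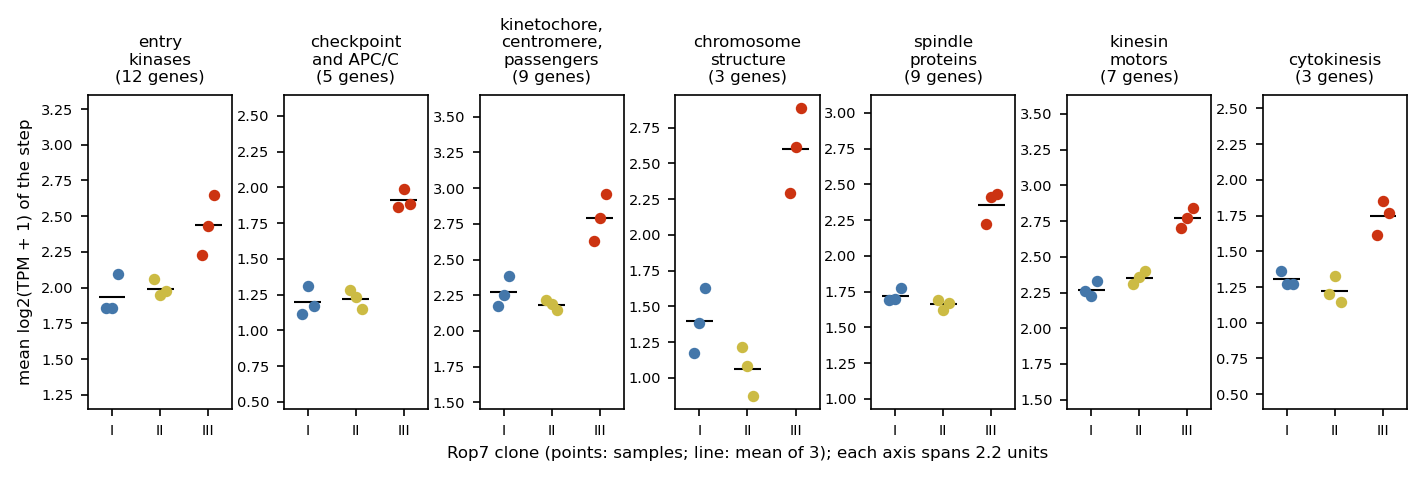
Each panel gives the mean log2(TPM + 1) over the tested genes of 1 step, with a point for each sample and a line for the mean of the 3 samples of a clone, and every axis spans the same number of units. Rop7-III lies above the other clones in all 7 steps, and most clearly for chromosome structure (2.60 against 1.39 and 1.06). Every step but chromosome structure includes members that passed the level filter through Rop7-III alone.

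The members with levels close to equal were mostly those already abundant in every clone. Split at a mean of 5 TPM over the 9 samples, a limit chosen after the values were seen, 36 tested members were under it and 13 at or over it. Of the 36, 19 were called higher in Rop7-III than the mean of the other clones, and the ratio of mean TPM had a median of 2.98 (1.03 to 10.3). These 36 include all 8 members that passed the level filter through Rop7-III alone and had to be higher there. Without them 13 of 28 were called higher, with a median ratio of 2.41 (1.03 to 5.6). Of the 13 abundant members, 1 was called higher (Kif22) and 1 lower (Gsg2), with a median ratio of 1.04 (0.541 to 1.68). In all tested genes, 510 of 9498 at or over the limit were called higher and 424 lower, and of 3535 genes under it that were above 0 outside Rop7-III, 104 were higher and 60 lower (83 and 60 of 3361 without the genes that passed the filter through Rop7-III alone). The abundant members that overlapped between clones and were not called were Plk1, Cdc20, Cenpa, Ndc80, Hmmr, Tacc3, Kif20b and Kif23, and the addition of 1 TPM before the logarithm narrows the difference of the low genes rather than of these. Gtse1, at 3.54 to 5.14 TPM, was the member under the limit with the ratio nearest to equality.

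**Figure D5:**
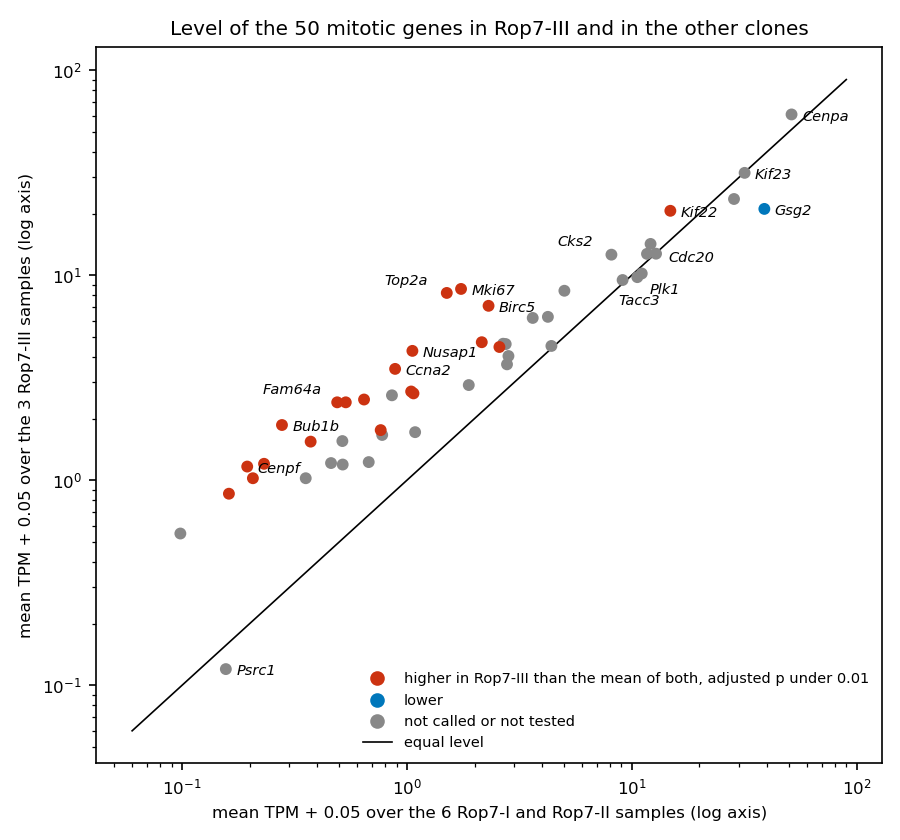
Each point is 1 of the 50 members, with its mean TPM over the 6 Rop7-I and Rop7-II samples on the x axis and over the 3 Rop7-III samples on the y axis, both log axes after adding 0.05. Red points, called higher than the mean of the other clones, lie above the line of equal level mainly at low TPM. Of the abundant genes, Kif22, which was called, and Cks1b and Cks2, which were not, lie above the line. Gsg2, called lower, and Hjurp, not called here, lie below it, and the other abundant genes lie nearer to it.

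The Rop7-III samples also differed among themselves. Replicate 3 had the highest value of the clone in 34 of the 49 members, replicate 2 in 12 and replicate 1 in 3, and replicate 1 had the lowest in 37. Top2a, for example, ranged from 5.89 to 10.17 TPM and Ccna2 from 1.85 to 4.93 TPM within the clone, whereas Gsg2 stayed between 20.89 and 21.20 TPM.

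Some members share exons with another gene on the annotation, and because the libraries do not keep strand, reads from the shared part cannot be assigned. These were Ccna2 with Exosc9, Cdc20 with Elovl1, Ube2c with Tnnc2, Cdca8 with 9930104L06Rik, Nusap1 with Oip5, Tacc3 with Tmem129, Kif20a with Cdc23, Kif4 with Pdzd11 and Prc1 with Rccd1. The partner genes were not called in Rop7-III against the mean of the other clones, with limma adjusted p values from 0.0997 for Elovl1 to 0.952 for Tmem129. The partners of Ccna2, Kif20a and Kif4 were more abundant than the members, at 27.08 to 32.11 TPM, 43.67 to 49.46 TPM and 15.89 to 19.08 TPM. The same held for the partners of Cdc20 (59.43 to 70.02 TPM), Tacc3 (25.59 to 30.44 TPM), Cdca8 (20.18 to 23.61 TPM) and Prc1 (18.10 to 24.91 TPM). Cdc20 and Tacc3 are among the abundant members that were not called, and what reads of the partners add to their levels was not tested.

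Other genes of mitosis gave fewer calls. Of 57 tested genes in a list of further kinetochore, spindle and cytokinesis genes, Rop7-III had 8 higher and 3 lower calls against Rop7-II and 4 higher calls against Rop7-I, with median differences of 0.22 and 0.19. Of the 57, 11 passed the level filter through Rop7-III alone and so had to be higher there. Ska1, Spag5, Kif18b and Troap, all called higher against Rop7-II, were among these 11. Against the mean of the other clones 7 of the 57 were higher and 1 lower. Higher calls made up 14% of the list against Rop7-II, 7.02% against Rop7-I and 12.3% against the mean. Over all tested genes these shares were 6.02%, 2.43% and 4.71%. The shares of the list include the 11 genes that had to be higher, and shares without them were not computed. Lower calls made up 5.51%, 2.08% and 3.71% of all tested genes. Kif18b, a kinesin, was at 0.04 to 0.25 TPM in Rop7-I, 0.04 to 0.16 TPM in Rop7-II and 0.78, 0.95 and 1.00 TPM in Rop7-III (difference from the mean 0.76, limma adjusted p = 0.00249). Spag5, a spindle protein, was at 0.23 to 0.41 TPM outside Rop7-III and at 1.06, 1.28 and 2.10 TPM in it. Cenpw, of the inner kinetochore, was at 0.65 to 1.32 TPM in Rop7-I, 2.41 to 2.72 TPM in Rop7-II and 3.05 to 3.72 TPM in Rop7-III, so that Rop7-I stood lowest. Mad1l1, of the checkpoint, was the gene called lower (difference from the mean -0.47, adjusted p = 0.00244), with Rop7-II highest at 40.39 to 48.71 TPM, Rop7-I at 27.43 to 32.47 TPM and Rop7-III at 24.85 to 27.79 TPM.

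The 16 APC/C subunits and inhibitor had median differences of -0.01 against Rop7-II and 0.03 against Rop7-I, and the single call was Anapc16, lower in Rop7-III when set against Rop7-II (-0.19, limma adjusted p = 0.0037), a gene outside the rule for named genes and picked after its value was seen. That call was 6.25% of the list, where 5.51% of all tested genes were called lower. Of 17 genes that control the transcription of mitotic genes, E2f8 was called higher against the mean of the other clones, at 0.89, 0.70 and 0.85 TPM in Rop7-III against 0.07 to 0.42 TPM elsewhere (difference 0.64, adjusted p = 0.00834). With at most 0.42 TPM elsewhere, E2f8 passed the level filter through Rop7-III alone and so had to be higher there. Its call was 5.88% of the list, where 4.71% of all tested genes were called higher. Of 15 further genes that control entry into mitosis, Cdc25b, a phosphatase that activates Cdk1, was called higher. That was 6.67% of the list, beside the same 4.71% of all tested genes against the mean. Cdc25b was at 271, 307 and 276 TPM in Rop7-I, at 244, 268 and 236 TPM in Rop7-II and at 454, 453 and 458 TPM in Rop7-III. All Rop7-III samples were above the others, and the difference was 0.87 against Rop7-II (adjusted p = 1.7e-05) and 0.68 against Rop7-I (adjusted p = 0.000126).

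Each sample held between 11056 and 11494 genes over 1 TPM. The 10 markers of CD8 T cells were at no less than 178 TPM in any sample. Markers of other cells varied between samples, and each list had its highest sum outside Rop7-III, although 1 erythroid marker, 1 CD4 T-cell marker (Cd40lg) and 2 NK-cell markers were highest in a Rop7-III sample. The 14 B-cell markers, none of them at 0 in any sample, summed to 424 to 1110 TPM in Rop7-I, 201 to 2586 TPM in Rop7-II and 157 to 333 TPM in Rop7-III, and all 14 were highest in Rop7-II replicate 1. The 11 myeloid markers summed to 61.0 to 148 TPM, 79.4 to 716 TPM and 38.8 to 88.1 TPM and were also highest in that sample, with 2 of them at 0 in Rop7-III replicate 2. The 11 erythroid markers summed to 415 to 2500 TPM in Rop7-I, 29.5 to 207 TPM in Rop7-II and 118 to 495 TPM in Rop7-III, with 9 of them highest in Rop7-I replicate 2 and between 1 and 5 at 0 in each sample. The 6 plasma-cell markers summed to 32.9 to 80.3 TPM over the 9 samples, with 1 at 0 in each, the 5 CD4 T-cell markers to 36.6 to 54.5 TPM and the 7 NK-cell markers to at most 2.60 TPM. Against the mean of the other clones, the calls among the markers of these lists were Cd2 and Cd40lg, higher in Rop7-III, and Cd8a, lower. Without both Rop7-I replicate 2 and Rop7-II replicate 1, a choice made after seeing these values, 13 members were called against Rop7-II and 8 against Rop7-I.

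Markers of activated and memory-like CD8 T cells differed from gene to gene. The 12 genes summed to 147 to 162 TPM in Rop7-I, 125 to 142 TPM in Rop7-II and 172 to 188 TPM in Rop7-III, which did not overlap. Their mean of log2(TPM + 1), which gives each gene the same weight, was 2.50 to 2.69 in Rop7-I, 1.91 to 2.50 in Rop7-II and 2.62 to 2.76 in Rop7-III, and here Rop7-I and Rop7-III overlapped. Against Rop7-I, 4 of the 10 tested genes had the higher mean in Rop7-III, with a median difference of -0.04 (-1.10 to 1.77), and against Rop7-II 7 did, with a median of 0.28 (-0.43 to 2.61). Against the mean of the other clones 2 were called higher in Rop7-III, a share of 20% where it was 4.71% over all tested genes. Ccl5, a chemokine of memory cells, was at 9.03, 7.28 and 6.92 TPM in Rop7-I, at 6.51, 2.42 and 3.48 TPM in Rop7-II and at 26.39, 29.64 and 30.36 TPM in Rop7-III, and Cxcr3, a chemokine receptor, was at 0.08 to 1.13 TPM elsewhere and at 2.59, 4.84 and 6.74 TPM in Rop7-III. Cd40lg, counted here among the CD4 T-cell markers, was also called higher, at 2.90 to 3.70 TPM in Rop7-III against 0 to 0.70 TPM elsewhere. The part of these genes, or of the cells that express them, in the levels of the mitotic genes was not tested.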

How the data were processed

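Libraries of polyadenylated RNA were made from 200 ng of RNA per sample and sequenced by the authors, without strand information. Per the labels and the methods of the study, reads of the 9 sorted samples were aligned and counted per gene with RSEM 1.2.11. The reference was mm10 RefSeq genes of the mouse. The authors deposited TPM for each gene and sample, with 2 decimals. TPM holds no counts, so that the depth of each sample is unknown, no counting interval was computed, and the count test that the authors used, DESeq2 1.8.1, was not run. Clones were taken from the sample labels.

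Values were analysed as log2(TPM + 1) with limma 3.58.1 in R 4.3.3, with all 9 samples in 1 model, the variance allowed to follow mean expression, over genes with a maximum TPM over 0.5, and adjusted by the Benjamini-Hochberg method over all tested genes within each comparison. Adding 1 TPM narrows the difference of weakly expressed genes. Members and gene lists were chosen with earlier results of these data known, and no test over a list was run. Values are given for members called in a comparison with Rop7-III, for members lower there than in both other clones by over 0.2 on the log2 scale, for other members as ranges or where they did not follow, and for up to 4 called genes of each other list. Alternatives were other pseudocounts, filters, scalings, limits and models, and samples left out. The fit was tested on simulated data, and no result of that test is given here. Motifs and positions were read from RefSeq and GENCODE tables of GRCm38. The labels do not say whether the replicate numbers pair the samples. Correlations of the deviations from the clone mean were -0.375 to 0.0983 over 9 same-numbered pairs. Over 18 pairs with different numbers they were -0.174 to 0.309. With 3 samples per clone the deviations are not independent, so these values cannot exclude a shared batch.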

Additional observations from a re-analysis of the deposited data

How the results depend on the processing

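The number of members called was compared under each alternative setting. Against Rop7-II (19 members) it was 4 when genes had to reach 1 TPM in every sample, which left 25 members to test, 12 when only the clones compared were fitted, 34 at an adjusted p under 0.05 and 10 with at least a 2-fold difference, and 10 to 16 with 1 sample left out. Against Rop7-I (16 members) it was 5 with 1 TPM in every sample, 29 at an adjusted p under 0.05, 8 with a 2-fold limit, 8 without both Rop7-I replicate 2 and Rop7-II replicate 1, and 5 to 19 with 1 sample left out. Between Rop7-I and Rop7-II (1 member) it was 0 when only those clones were fitted and 0 with at least a 2-fold difference, 2 at an adjusted p under 0.05, and 1 to 2 with 1 sample left out. Against the mean of the other clones (21 members) it was 8, 37 and 9 with 1 TPM in every sample, an adjusted p under 0.05 and a 2-fold limit, and 11 to 22 with 1 sample left out, and a fit of only the clones compared has no value. With the replicate number as a block, 12 members were called against Rop7-II, 9 against Rop7-I and 15 against the mean. Whether the numbers pair the samples is not known. No called gene changed sign under any setting run. Other pseudocounts, the other filters, scalings, sample weights and a fit without the trend kept the counts within 1.5 times. The paper states a typical number of reads per sample, but the depth of each sample is unknown. What counting error adds at the low TPM of most members was not estimated.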
